A study of Mus musculus with 48 samples.

Results

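The transcripts of 10 epithelial genes were followed across whole-liver RNA from 48 mice: the keratins Krt7, Krt8, Krt18 and Krt19, the bile duct and progenitor markers Epcam, Sox9 and Prom1, and 3 genes that appear in injured epithelium, Tspan8, Ly6d and Spink1. They were taken by symbol from 29221 counted genes. Some of them were chosen by their CPM on the HFCF diet, where they stood higher than on the HF diet, so their levels on that diet against the other diets are given as a description, with no test. All mice carried a floxed Pparg gene, Pparg being a nuclear receptor that drives lipid storage genes. After 16 weeks on diet they received either AAV8-TBG-Cre, a virus in which the TBG promoter directs Cre recombinase to hepatocytes (the labelled knockouts), or AAV8-TBG-null (the controls). LF is a low-fat diet (D12450J) and HF a high-fat diet (D12492), each fed for 34 weeks in all. HFCF mice ate the HF diet for 18 weeks and then, for 16 weeks, the HFCF diet (D16010101), which adds cholesterol and fructose to high fat. There were 6 males in each of 4 groups (HF control, HF labelled knockout, HFCF control, HFCF labelled knockout) and 4 females in each of 6 groups (LF, HF and HFCF, control and labelled knockout). The labels describe the mice as adult, and each library came from its own mouse.

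Keratins are the intermediate filaments of epithelia. Hepatocytes hold the pair Krt8 and Krt18, whereas cholangiocytes, the cells that line bile ducts, also carry Krt7 and Krt19. Epcam (a cell adhesion molecule), Sox9 (a transcription factor of duct development) and Prom1 (the membrane protein CD133) mark duct and progenitor-like cells, which multiply in the ductular reaction of chronic liver injury. Tspan8 is a tetraspanin of epithelial membranes, Ly6d is a small surface protein held by a lipid anchor, and Spink1 is a secreted trypsin inhibitor best known from pancreatic acinar cells. In whole-liver RNA, a change in the number of cells of a type and a change in RNA per cell cannot be told apart, and the virus was directed to hepatocytes, not to the duct cells that hold several of these transcripts.

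Libraries held 15338239 to 22072884 reads on genes. Alb, the hepatocyte protein albumin, averaged 36299 to 88112 CPM (counts per gene scaled to library size) over the 10 groups, so hepatocyte RNA was abundant throughout. The targeted gene did not check the knockout label. Pparg, counted over the whole gene, averaged 34.2 CPM in HF control males and 41.1 CPM in HF labelled-knockout males. On the HFCF diet it averaged 32.4 and 56.3 CPM in males and 23.7 and 45.8 CPM in females, in control and labelled-knockout mice. In females it averaged 10.4 and 15.4 CPM on LF and 18.7 and 28.6 CPM on HF. Counts over a whole gene do not show whether the floxed exons were present, and the groups are called labelled knockouts for that reason. A pair of libraries stood apart for these genes. Control replicate 1 of the HF females was the highest of its group for 10 of the 10 genes, and its summed stellate cell and fibroblast markers were 646 CPM against 94.2, 98.0 and 184 CPM in the other 3 libraries. Control replicate 1 of the HFCF males was the lowest of its group for 7 of the 10 genes, and its summed stellate markers were 454 CPM against a group median of 974 CPM. Where leaving out one of these libraries changed a call, or turned the sign of a change given in the text, the result without it is given too. Sizes that lean on these libraries are given without them for part of the genes only.

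The promoters of 4 of the genes are shown because their transcripts varied together from mouse to mouse, Krt8 with Krt18 and Epcam with Tspan8 (values below). Epcam varied as closely with Krt7 (Pearson's r = 0.766), whose window is not printed, as with Tspan8 (0.765). RefSeq promoter windows on build GRCm38.p6, reaching from 250 bases before to 50 bases after the start site, were matched for 6 of the 10 genes (7 windows, Prom1 having a pair). The stretches shown end 25 bases after the start site. They are chr15:102004318-102004592 on the minus strand for Krt8, chr15:102027966-102028240 on the plus strand for Krt18, chr17:87635729-87636003 on the plus strand for Epcam and chr10:115817034-115817308 on the plus strand for Tspan8. Capitals mark matches to any of 4 motifs, each searched on both strands. TATAAA is the core promoter box that positions many start sites. GGGCGG is the box bound by Sp1 family factors. The AP-1 heptamer, TGANTCA, is bound by Fos and Jun proteins. The direct repeat AGGTCANAGGTCA is bound by pairs of PPAR and RXR receptors.
Krt8: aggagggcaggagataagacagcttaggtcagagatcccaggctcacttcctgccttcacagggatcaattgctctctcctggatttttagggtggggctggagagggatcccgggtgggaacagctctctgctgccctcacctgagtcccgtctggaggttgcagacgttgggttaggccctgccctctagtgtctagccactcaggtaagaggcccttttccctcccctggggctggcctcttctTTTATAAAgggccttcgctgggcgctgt
Krt18: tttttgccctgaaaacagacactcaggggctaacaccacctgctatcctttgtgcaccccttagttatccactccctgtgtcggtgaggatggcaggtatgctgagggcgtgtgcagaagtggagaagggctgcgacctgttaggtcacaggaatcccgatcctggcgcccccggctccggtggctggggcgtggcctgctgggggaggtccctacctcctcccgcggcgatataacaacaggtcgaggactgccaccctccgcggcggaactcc
Epcam: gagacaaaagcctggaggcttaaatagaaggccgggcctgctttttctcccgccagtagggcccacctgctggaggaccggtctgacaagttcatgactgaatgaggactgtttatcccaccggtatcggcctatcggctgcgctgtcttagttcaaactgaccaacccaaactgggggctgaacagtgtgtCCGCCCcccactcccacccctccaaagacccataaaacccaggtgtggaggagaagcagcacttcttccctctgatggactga
Tspan8: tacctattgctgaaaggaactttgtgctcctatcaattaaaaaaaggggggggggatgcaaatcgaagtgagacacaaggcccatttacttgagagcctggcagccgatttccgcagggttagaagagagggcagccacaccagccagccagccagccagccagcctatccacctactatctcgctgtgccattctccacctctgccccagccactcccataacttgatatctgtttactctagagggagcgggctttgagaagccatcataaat

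In the Krt8 window TATAAA matched on both strands, in overlapping letters that begin at bases -3 and -1 from the start site. That start site is RefSeq's, and the Krt8 gene as counted begins at chr15:102004482, inside the stretch before it. Epcam held GGGCGG once, on the minus strand at base -58. Krt18 and Tspan8 held none of the 4 motifs, so the promoters of the most closely varying keratin pair shared no match among these letters. Among the windows not printed, Krt7 held 4 matches to GGGCGG, and each of the 2 Prom1 windows held the AP-1 site. A Prom1 window also held GGGCGG, on the plus strand at base -62. Of 32851 windows of the same length, TATAAA was in 13.6%, GGGCGG in 35.7%, the AP-1 site in 7.81% and the direct repeat in 0.0396%. The direct repeat was in 0 of the 7 windows of these genes. These matches describe letters and not binding. Of the 10 genes, 4 lie on chromosome 15 (Krt7, Krt8, Krt18 and Ly6d), and Krt8 and Krt18 lie 23.7 kb apart on opposite strands. Krt19 and Sox9 lie on chromosome 11. The libraries did not keep strand, but the genes that overlap Krt7, Krt8, Prom1 and Tspan8 held at most 11 reads in any library.

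Levels differed by orders of magnitude between the genes. On the authors' length-corrected FPKM scale (fragments scaled to gene length and library size), the group means of Krt8 ran from 88.1 to 284 FPKM and those of Krt18 from 93.2 to 205 FPKM. Ly6d ran from 3.13 to 138 FPKM, the widest range in absolute level outside the Krt8 and Krt18 pair. Tspan8 ran from 0.976 to 9.76 FPKM, Epcam from 1.66 to 7.34 FPKM, Sox9 from 1.64 to 5.14 FPKM, Krt19 from 0.719 to 3.95 FPKM, Prom1 from 0.227 to 2.11 FPKM and Krt7 from 0.145 to 0.744 FPKM. Spink1 ran from 0.0716 to 5.08 FPKM on few reads, at most 85 in a library. The hepatocyte keratins were thus far above the duct keratins in each of the 10 group means.

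**Figure D1:**
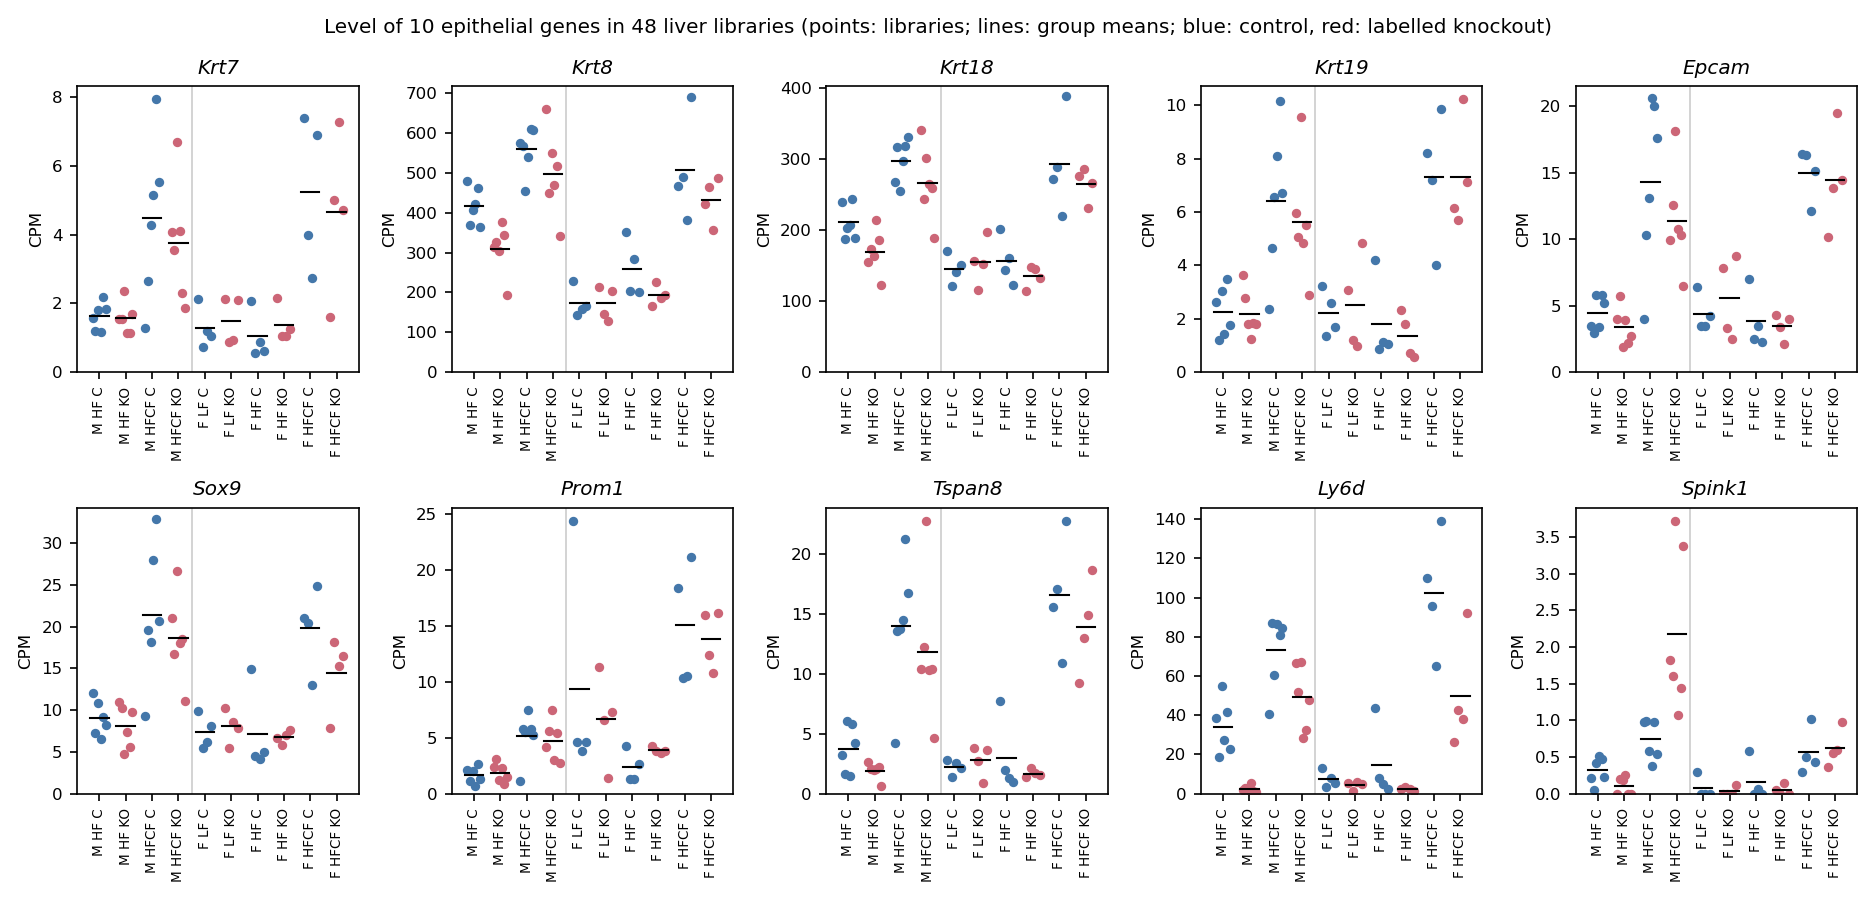
CPM of each of the 10 genes in each of the 48 libraries, by group (M male, F female, C control, KO labelled knockout), on linear axes from 0; each point is 1 mouse and each line the group mean. The 4 HFCF groups hold the highest means for 9 of the 10 genes; Prom1 is the exception, as its HFCF males (5.15 and 4.74 CPM) lie below the LF female means (9.38 and 6.64 CPM).

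Krt8 and Krt18, the filament pair of hepatocytes, were highest on the HFCF diet. Krt8 averaged 560 ± 57.7 CPM (SD, n = 6) in HFCF control males and 417 ± 47.4 CPM (SD, n = 6) in HF control males, and the libraries overlapped. In control females Krt8 read 467, 491, 383 and 691 CPM on HFCF, 352, 203, 284 and 201 CPM on HF, and 230, 144, 158 and 165 CPM on LF. The 4 HFCF females were above all HF and LF control females. Krt18 in the same females read 271, 289, 220 and 389 CPM on HFCF and 201, 144, 160 and 122 CPM on HF, again without overlap. On a log2 scale the ratio of HFCF to HF means was 0.43 (males) and 0.97 (females) for Krt8, and 0.49 and 0.90 for Krt18, in controls. Without HF control female replicate 1 the female ratios were 1.15 and 1.04. These are the smallest ratios of the 10 genes in control mice, on the transcripts with the highest levels.

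The duct keratins showed larger ratios on far fewer reads. Krt19 averaged 6.43 ± 2.70 CPM (SD, n = 6) in HFCF control males against 2.26 ± 0.93 CPM (SD, n = 6) in HF control males, with overlap. The lowest HFCF library, replicate 1, held 2.38 CPM, the median 6.64 CPM and the highest 10.2 CPM. In control females Krt19 read 8.23, 7.20, 4.02 and 9.88 CPM on HFCF and 4.22, 0.872, 1.13 and 1.05 CPM on HF. The HF value of 4.22 CPM, from control replicate 1, is the one that overlaps. Krt7 averaged 4.48 CPM in HFCF control males and 5.25 CPM in HFCF control females, against 1.63 and 1.03 CPM on HF. It rested on 9 to 155 reads per library. Its HF control female mean leans on replicate 1, at 2.08 CPM against 0.561 to 0.877 CPM in the others.

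Epcam and Sox9 followed the same order of diets. Epcam averaged 14.3 ± 6.43 CPM (SD, n = 6) in HFCF control males and 4.42 ± 1.30 CPM (SD, n = 6) in HF control males. In control females it read 16.4, 16.3, 12.1 and 15.1 CPM on HFCF, and 6.99, 2.49, 3.45 and 2.29 CPM on HF, without overlap. Its means on LF (4.37 CPM) and HF (3.81 CPM) lay within 1 SD of each other, and the 6 means of the LF and HF groups ran from 3.41 to 5.59 CPM. Sox9 averaged 21.4 CPM in HFCF control males, 19.8 CPM in HFCF control females, and 6.81 to 9.02 CPM over the 6 LF and HF groups. Among these, the HF control female mean of 7.15 CPM leans on replicate 1. That library held 14.9 CPM of Sox9, and the others in its group 4.20 to 4.96 CPM.

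Prom1 was ordered by sex as well as diet. Its 2 highest means were those of HFCF females, 15.1 ± 5.55 CPM in controls and 13.8 ± 2.67 CPM in labelled knockouts (SD, n = 4). In males it averaged 5.15 CPM on HFCF and 1.64 CPM on HF, in controls. LF control females read 24.4, 4.62, 3.85 and 4.63 CPM, so the LF mean of 9.38 CPM rests on replicate 1. The HFCF libraries lay above all HF libraries in females of both virus groups, and overlapped with them in males.

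Tspan8 had a larger ratio of means on HFCF than any keratin, Epcam, Sox9 or Prom1 in 5 of the 6 diet contrasts, a difference that was not tested. The exception was Prom1 in control females (2.66 against 2.48 for Tspan8), which without HF control replicate 1 gave 3.10 against 3.57. It averaged 14.0 ± 5.61 CPM (SD, n = 6) in HFCF control males and 3.73 ± 1.98 CPM (SD, n = 6) in HF control males. In labelled-knockout males the means were 11.8 and 1.92 CPM, and there the libraries did not overlap. Female controls read 15.6, 17.1, 10.9 and 22.8 CPM on HFCF against 7.74, 1.93, 1.32 and 0.930 CPM on HF.

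Ly6d spanned a wide range of levels between the groups. Its means ran down from HFCF control females at 103 ± 30.8 CPM (SD, n = 4) and HFCF control males at 73.3 ± 18.9 CPM (SD, n = 6) to HFCF labelled knockouts at 49.8 ± 28.9 CPM in females (SD, n = 4) and 49.1 ± 16.4 CPM in males (SD, n = 6). HF control males came next at 34.0 ± 13.6 CPM (SD, n = 6), then HF control females at 14.7 ± 19.5 CPM and LF control females at 7.39 ± 4.10 CPM (SD, n = 4). The 3 lowest groups were LF labelled-knockout females at 4.34 ± 1.97 CPM (SD, n = 4), HF labelled-knockout males at 2.38 ± 1.66 CPM (SD, n = 6) and HF labelled-knockout females at 2.34 ± 1.04 CPM (SD, n = 4). The 2 HFCF labelled-knockout groups, and the 3 lowest groups, lie within 1 SD of their neighbours in that order. HF control females read 43.8, 7.72, 4.89 and 2.36 CPM, and their mean rests on replicate 1.

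Spink1 was close to absent on LF and HF. Over whole groups it had 33 reads in HF control males, 10 in HF labelled-knockout males, 5 and 2 in LF females and 11 and 4 in HF females (control and labelled knockout). On HFCF it had 84 reads in control males, 251 in labelled-knockout males, 44 in control females and 47 in labelled-knockout females. It passed the filter on low counts only in comparisons that hold HFCF libraries. In control males the ratio of HFCF to HF reads, scaled to library size, was 2.63, with a 95% counting interval of 1.74 to 4.06. The interval covers counting error only. Defining markers of acinar cells had few reads: the trypsinogen gene Prss2 had 0 to 3 reads in any group, and the elastase gene Cela3b had 0 in each of the 5 labelled-knockout groups and in LF control females. In the other control groups Cela3b had 10 reads (HF males), 4 (HFCF males), 6 (HF females) and 13 (HFCF females), against 33, 84, 11 and 44 reads of Spink1. The acinar gene Cel had 4 reads in HF labelled-knockout males, 2 in HF labelled-knockout females and 0 in the other groups. The part of acinar RNA in the Spink1 counts was not tested in any group.

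**Figure D2:**
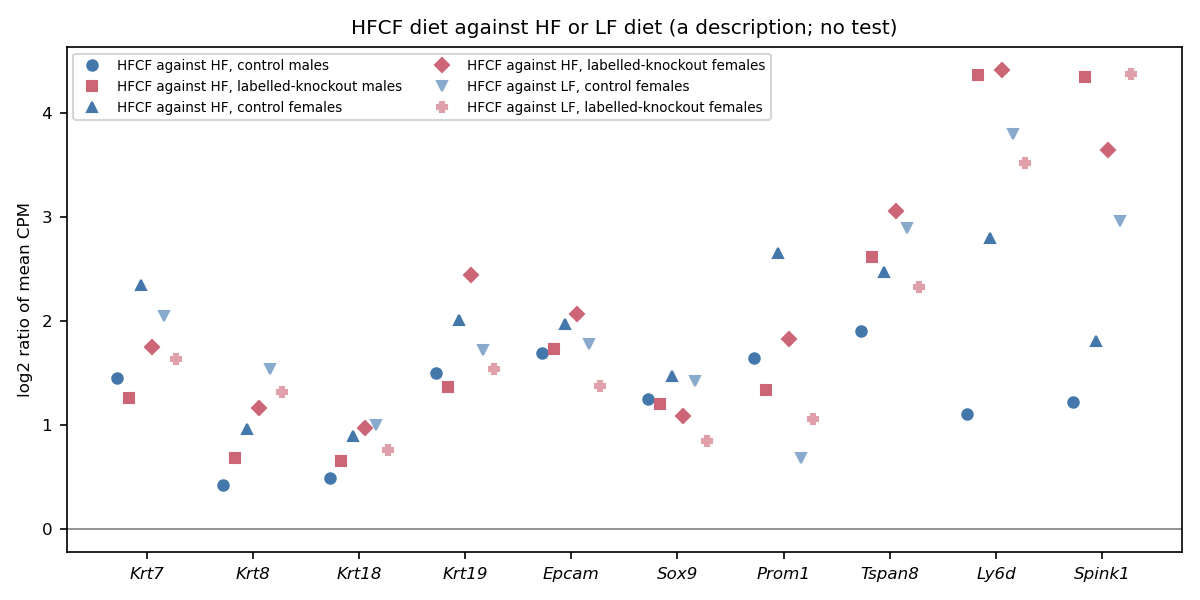
Log2 ratio of mean CPM on HFCF to mean CPM on HF or LF for the 10 genes in each of 6 contrasts, 1 symbol per contrast. All 60 ratios lie above 0, from 0.43 (Krt8, control males) to 4.41 (Ly6d, labelled-knockout females against HF).

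Set side by side, the 10 genes were higher on HFCF in each of the 6 contrasts, which is what some were chosen for and is given without a test. The median log2 ratio over the 10 genes was 1.35 in control males, 1.35 in labelled-knockout males, 1.99 in control females and 1.95 in labelled-knockout females against HF, and 1.75 and 1.46 in control and labelled-knockout females against LF. The medians over all genes were -0.002 to -0.040. Contrasts that share HFCF libraries are not separate evidence. Without HF control female replicate 1 the median in control females was 2.89. Every HFCF library lay above every HF library for 1 of the 10 genes in control males (1.72% of all genes did so), 5 in labelled-knockout males (10.0%), 7 in control females (14.8%) and 9 in labelled-knockout females (10.2%). Against LF the counts were 9 in controls (18.3%) and 7 in labelled knockouts (10.2%). These shares are over genes that passed the filter on low counts, which Spink1 did not in females. Among the 9 genes that passed there, the count was 8 in labelled-knockout females against HF. Against LF it was 8 in controls and 6 in labelled knockouts. Since the contrasts were used to choose genes, nothing is read from those counts. The single gene without overlap in control males was Krt18.

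Ly6d differed most between the contrasts. Its HFCF mean was 2.16-fold the HF mean in control males and 20.6-fold in labelled-knockout males, and 6.98-fold and 21.3-fold in control and labelled-knockout females. The female control value rests on HF control replicate 1: its log2 ratio was 2.80 with that library and 4.36 without it, close to the 4.41 of labelled-knockout females. In males the HF means of Ly6d (34.0 CPM in controls and 2.38 CPM in labelled knockouts) lie further apart than the HFCF means (73.3 and 49.1 CPM). Whether the labelled-knockout effect differs by diet was not tested.

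Other genes of duct and injury biology stood higher on HFCF too, given again as a description. Of 16 further progenitor and oncofetal genes, 10 passed the filter in control males and 6 had ratios above 0 (median 0.37). Their median against HF was 1.16 in labelled-knockout males, 1.59 in control females and 0.86 in labelled-knockout females. Against LF it was 1.29 in control and 0.99 in labelled-knockout females. In each contrast 6 or 7 of the 10 were above 0. The other lists are given for control males against HF, where 49.6% of all genes had ratios above 0. Among 24 further cholangiocyte markers, 21 passed the filter in control males and 19 of them had ratios above 0 (median log2 ratio 1.43). Cftr, the chloride channel of duct cells, averaged 0.719 CPM in HF control males and 3.64 CPM in HFCF control males. Of 18 further genes of injured hepatocytes, 17 passed and 15 were above 0 (median 0.77), and of 16 targets and partners of the YAP and TEAD growth pathway 14 were above 0 (median 0.74). Notch pathway genes, which steer duct fate, were above 0 for 10 of 12 (median 0.45). Markers of other cells moved on the same diet: 10 of 10 hepatocyte markers lay below 0 (median -0.38), 9 of 10 stellate and fibroblast markers above 0 (median 1.13) and 10 of 10 macrophage markers above 0 (median 1.19). Their part in the levels of the 10 genes was not tested.

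The effect of the virus was tested within each sex and diet with edgeR's quasi-likelihood test, adjusted by Benjamini-Hochberg over all genes tested, and a gene was called at an adjusted p under 0.05. These comparisons share libraries with the diet contrasts used in choosing genes. In HF males Ly6d and Krt8 fell, and none of the 9 genes tested rose. Of all genes, 18.5% were called there in either direction and 9.88% were lower, so 2 of 9 is near the background. Of the 9 genes, 8 had negative changes, with a median of -0.33 against 0.00 for all genes. The genes varied together from mouse to mouse (values below), so signs counted over them, here and below, are not separate evidence.

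Ly6d was 14.3-fold lower in HF labelled-knockout males. The control libraries read 18.8 (lowest), 32.9 (median) and 54.7 CPM (highest), and the labelled-knockout libraries 0.843, 1.96 and 5.41 CPM. The groups did not overlap, as was the case in the lower direction for 4.24% of all genes. The log2 change was -3.84 (SE 0.36, adjusted p = 4.55e-06 by edgeR's quasi-likelihood test). It was called in 12 of 12 fits that left out 1 library, with changes from -4.27 to -3.65.

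Krt8 averaged 417 ± 47.4 CPM (SD, n = 6) in HF control males and 310 ± 63.1 CPM (SD, n = 6) in labelled-knockout males. The controls ran from 364 to 479 CPM with a median of 414 CPM, and the labelled knockouts from 193 to 377 CPM with a median of 321 CPM, so that the groups overlapped. The log2 change was -0.43 (SE 0.13, adjusted p = 0.0260 by edgeR). The call was lost without control replicate 1 (adjusted p = 0.0614) or control replicate 5 (adjusted p = 0.0590). Its partner Krt18 had a log2 change of -0.33 (SE 0.11), with an adjusted p of 0.0503 by edgeR that lies just outside the threshold, and 0.0289 by DESeq2's Wald test. Tspan8 averaged 3.73 CPM in controls and 1.92 CPM in labelled knockouts, a log2 change of -0.95 (SE 0.36, adjusted p = 0.0783 by edgeR and 0.0371 by DESeq2's Wald test). The duct keratins gave -0.06 (Krt7) and -0.05 (Krt19), Sox9 -0.17, Epcam -0.38 and Prom1 0.19, and none passed the test. The approximate 95% interval for Krt19 was -0.64 to 0.53, which leaves room for changes as large as that of Krt8.

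**Figure D3:**
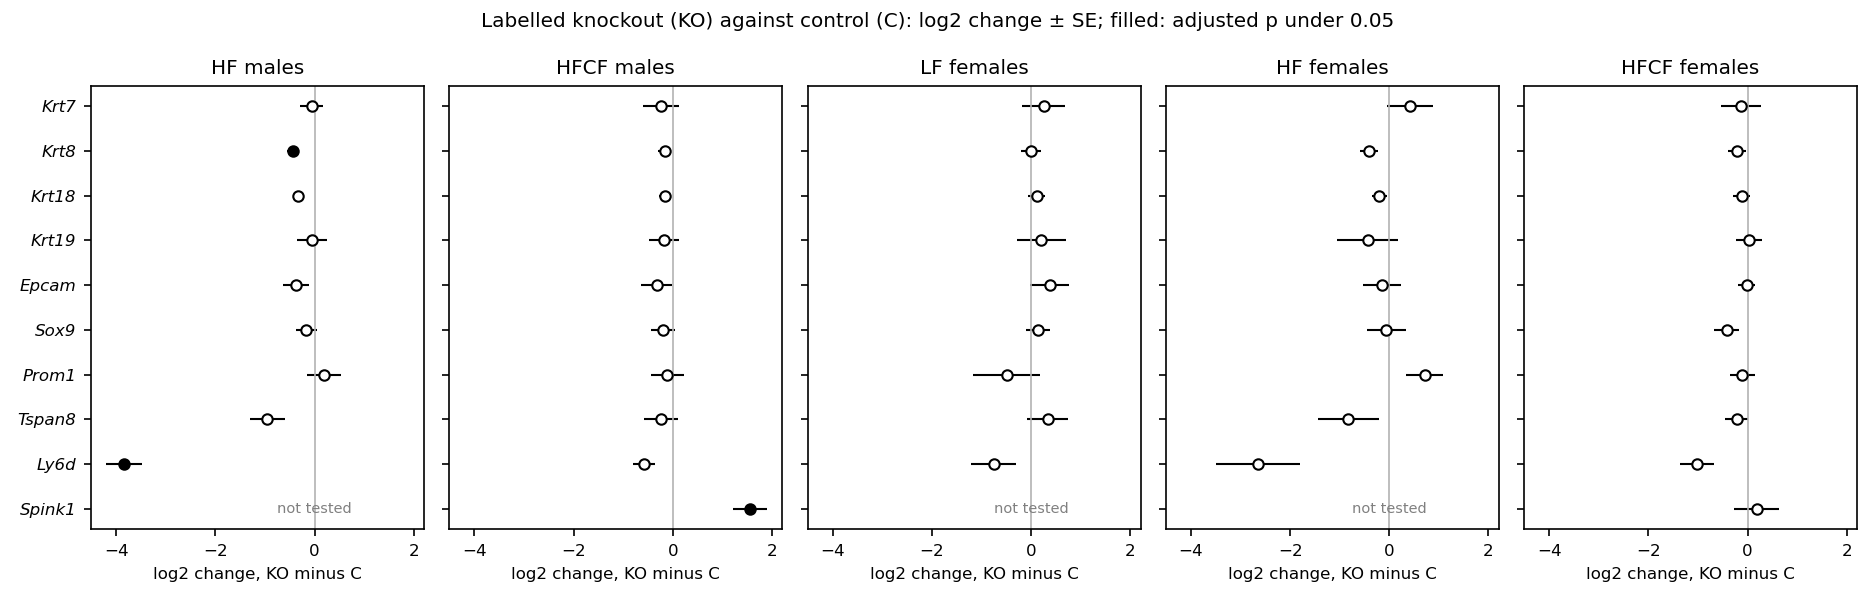
Log2 change in labelled knockouts against controls for the 10 genes in the 5 sex and diet groups, 1 panel each, with bars of 1 SE; filled points were called at an adjusted p under 0.05. Ly6d in HF males (-3.84) lies far from the other genes, and Spink1 in HFCF males (1.56) is the called point above 0.

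Neighbouring gene lists in HF males held the following calls, with 18.5% of all genes called as the background. Of 16 injured hepatocyte genes 8 were lower and 0 higher (median -0.64), among them Lgals1 (galectin-1, -1.83), the annexins Anxa2 (-1.55) and Anxa5 (-1.14), and S100a11 (-1.35). Of 18 cholangiocyte markers 3 were lower, Spp1 (osteopontin, -0.88), Cdh1 (E-cadherin, -1.13) and Pkhd1 (fibrocystin of the duct cilium, -0.47), while Atp1b1 (a sodium pump subunit, 0.32) and Pigr (the receptor that carries IgA into bile, 0.32) were higher. Hepatocytes also express several of these, Pigr above all. Among 9 progenitor and oncofetal genes 4 were lower (Itga6 -0.98, Tnfrsf12a -0.79, Sox4 -0.83, Cd44 -0.38) and 2 were higher (Afp 0.56, Lgr4 0.32).

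Signalling genes of duct fate were called in 1 direction in HF males. Of 11 Notch pathway genes 3 were lower and 0 higher: the ligand Jag1 (-0.92, adjusted p = 0.00189 by edgeR), the receptor Notch1 (-0.54) and the target Hey1 (-0.99). Of 15 YAP and TEAD genes 7 were lower and 0 higher, among them the coactivator Wwtr1 (TAZ, -0.54), the DNA-binding partner Tead1 (-0.59) and the targets Ajuba (-0.71) and Crim1 (-0.39). The 2 further keratins that passed the filter, Krt10 (0.57) and Krt23 (-0.61), were not called. Markers of other cells moved beside them. Of 10 hepatocyte markers 7 were higher, and of 10 stellate and fibroblast markers 6 were lower, with Col3a1 at -1.05 and Col1a1 at -1.23. The summed stellate markers ran from 314 to 528 CPM in controls and from 186 to 274 CPM in labelled knockouts, without overlap, with 0 of the 10 markers at 0 reads in either group. Ly6d is also a marker of early B cells. Of 8 B and plasma cell markers 1 was lower (Pax5, -1.13), and their sums overlapped, at 23.3 to 40.9 CPM in controls and 19.9 to 56.2 CPM in labelled knockouts. The part of the stellate and hepatocyte shifts in the changes of Ly6d and Krt8 was not tested.

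In HFCF males Spink1 was called as higher and the other 9 genes did not pass the test (2.21% of all genes were called, 0.933% in the higher direction). Spink1 read 0.380 (lowest), 0.778 (median) and 0.992 CPM (highest) in controls, and 1.07 (lowest), 1.71 (median) and 3.71 CPM (highest) in labelled knockouts. The groups did not overlap, as held in the higher direction for 0.851% of all genes. The log2 change was 1.56 (SE 0.34, adjusted p = 0.0300 by edgeR), a 2.94-fold difference resting on 251 reads against 84, whose ratio scaled to library size was 2.96 with a 95% counting interval of 2.30 to 3.84. Control libraries held 7 to 19 reads and labelled-knockout libraries 20 to 85. The gene did not pass the filter between HFCF and HF control males, so it entered this test through the group in which it was high, and its call is no support for a change in these genes. Without a filter the adjusted p was 0.0209 by edgeR. The call was lost in 5 of 12 fits that left out 1 library. The acinar gene Cela1, which liver also expresses, went the other way, at 7.68 CPM in labelled knockouts and 13.0 CPM in controls (log2 change -0.76, adjusted p = 0.0145 by edgeR).

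In HFCF males 9 of the 10 changes were negative, with a median of -0.19 over the 10 against -0.006 for all genes. Without control replicate 1, 9 of 10 were negative, with a median of -0.34. Ly6d averaged 73.3 CPM in controls and 49.1 CPM in labelled knockouts, a log2 change of -0.58 (SE 0.22, adjusted p = 0.233 by edgeR). Without control replicate 1, the library that was low for most of these genes, Ly6d passed at -0.70 (adjusted p = 0.0396), where 7.09% of all genes were then called. The changes of Krt8 (-0.16) and Krt18 (-0.16) were close to their SEs of 0.13 and 0.12. Of 17 injured hepatocyte genes 2 were lower, Lgals1 (-0.90) and S100a11 (-0.95). Of 10 progenitor genes Afp (0.58) was higher, of 12 Notch genes Notch2 (0.27) was higher, and 0 of 22 cholangiocyte markers and 0 of 16 YAP and TEAD genes were called.

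In females no gene of the 10 passed the test against control on any diet. The background was 0% of all genes on LF, 0% on HF and 0.0534% on HFCF by edgeR. DESeq2's Wald test also called 0 of the 10, but on HF it gave an adjusted p to 5637 genes, against 14128 by edgeR. Genes left without one could not be called by it, and Spink1 was not tested on LF or HF. At an unadjusted p under 0.05 by edgeR there were 355 of all 14285 genes on LF, 1135 of 14128 on HF and 1340 of 14980 on HFCF. Of the genes followed here there were 0 of 9 on LF, 1 of 9 on HF and 1 of 10 on HFCF, the gene being Ly6d both times. On HF its labelled-knockout libraries read 2.47, 3.57, 2.26 and 1.05 CPM against 43.8, 7.72, 4.89 and 2.36 CPM in controls (log2 change -2.64, SE 0.85, adjusted p = 0.584 by edgeR). Without control replicate 1 the change was -1.06. On HFCF its labelled-knockout libraries read 26.5, 42.4, 38.3 and 92.0 CPM against 110, 95.7, 65.1 and 139 CPM (log2 change -1.01, SE 0.35, adjusted p = 0.548 by edgeR). The groups overlapped on each diet. The median change over the genes tested was 0.14 on LF, -0.20 on HF and -0.13 on HFCF. Without HF control replicate 1 the HF median turned to 0.34, with 3 of 9 changes negative. In the 3 comparisons, 0 genes of the cholangiocyte, progenitor, Notch, YAP and injury lists were called.

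Whether the effect of the virus differed between the sexes was tested as an interaction, in which 0% of all genes were called on either diet by edgeR (1590 and 1515 genes had an unadjusted p under 0.05 on HF and HFCF) and 0 of the 10 genes were called by either tool. On HFCF the Wald test of DESeq2 gave an adjusted p to 7469 genes, against 15673 by edgeR, and could not call the others. For Ly6d on HF the log2 effect in males minus that in females was -1.20 (SE 0.90, adjusted p = 0.642 by edgeR). Without HF control female replicate 1 it was -2.76 (SE 0.65, adjusted p = 0.0347 by edgeR), so that 1 library decided this result (1.88% of all genes were then called). For Spink1 on HFCF the difference was 1.38 (SE 0.60, unadjusted p = 0.0312, adjusted p = 0.469 by edgeR).

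HF feeding alone, tested against LF in females, called 0 of the 9 genes in controls (0.696% of all genes were called) and 0 of 9 in labelled knockouts (0.155%). DESeq2's Wald test also called 0 of them. In controls 2 of the 9 genes had an unadjusted p under 0.05 by edgeR, as had 2314 of all 14216 genes tested. Prom1 averaged 2.39 CPM on HF and 9.38 CPM on LF (log2 change -1.98, SE 0.68, adjusted p = 0.193 by edgeR). Its LF mean rests on replicate 1, at 24.4 CPM against 3.85 to 4.63 CPM in the other LF control libraries. Krt8 averaged 260 and 174 CPM on HF and LF (0.57, SE 0.22, adjusted p = 0.236 by edgeR). Prom1 was called where all 10 groups were fitted together (-1.99, adjusted p = 0.0147 by edgeR), a fit that called 910 of 16236 genes. In labelled knockouts 8 of the 9 changes were negative, with a median of -0.72 against 0.003 for all genes. There 0 of the 9 genes had an unadjusted p under 0.05 by edgeR, against 1902 of all 14214 genes tested. The change of Ly6d in controls was 0.99 with, and -0.58 without, HF control replicate 1. With that library 5 of the 9 changes in controls were negative, with a median of -0.05. Without it 8 of 9 were negative, with a median of -0.69.

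Males were compared with females within diet and virus, with the caution that the sexes may also differ as cohorts, since sex and any batch of mice cannot be told apart here. On HF, Krt8 was higher in males in both virus groups. Among controls it averaged 417 CPM in males and 260 CPM in females, without overlap, as held in the higher direction for 6.17% of all genes (log2 difference 0.69, SE 0.16, adjusted p = 0.0116 by edgeR), and among labelled knockouts 310 and 193 CPM, with overlap (0.67, SE 0.15, adjusted p = 0.0126 by edgeR). Krt18 was higher in control males (0.44, adjusted p = 0.0366 by edgeR), a call lost in 7 of 10 fits that left out 1 library. The background was 18.1% of all genes in HF controls and 14.3% in HF labelled knockouts, so 2 of 9 in each is near it. On HFCF the differences of Krt8 were 0.14 in controls and 0.19 in labelled knockouts and did not pass.

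Without HF control female replicate 1, 7 of the 9 genes tested were called between HF control males and females, where 34.4% of all genes were then called. Ly6d then differed by 2.77 (SE 0.40, adjusted p = 0.000240 by edgeR), against 1.20 (SE 0.63, adjusted p = 0.199) with that library. In HF labelled knockouts Ly6d differed by 0.01 (SE 0.47), at 2.38 CPM in males and 2.34 CPM in females.

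Prom1 went the other way, being lower in males in 3 of the 4 comparisons. In HFCF labelled knockouts it averaged 4.74 CPM in males and 13.8 CPM in females (log2 difference -1.54, SE 0.24, adjusted p = 0.00297 by edgeR), called in 10 of 10 fits that left out 1 library. In HFCF controls the means were 5.15 and 15.1 CPM (-1.54, SE 0.35, adjusted p = 0.0355), and in HF labelled knockouts 1.88 and 3.89 CPM (-1.07, SE 0.30, adjusted p = 0.0323), each called in 4 of 10 such fits. The libraries of the sexes did not overlap in these 3 comparisons, as held in the lower direction for 3.45%, 2.35% and 5.92% of all genes. In HF controls the difference was -0.55 and did not pass. The background on HFCF was 2.63% of all genes in controls and 5.4% in labelled knockouts. Spink1 was higher in males among HFCF labelled knockouts, at 2.17 against 0.619 CPM (1.77, SE 0.41, adjusted p = 0.0297 by edgeR), called in 4 of 10 fits that left out 1 library. These males held 20 to 85 reads of it per library and the females 5 to 19. The gene did not pass the filter between HFCF and HF labelled-knockout females. It thus entered this test through the group in which it was high, and its call is no support for a sex difference. The other duct genes, Krt7, Krt19, Epcam and Sox9, were not called between the sexes in any of the 4 comparisons with all libraries in.

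**Figure D4:**
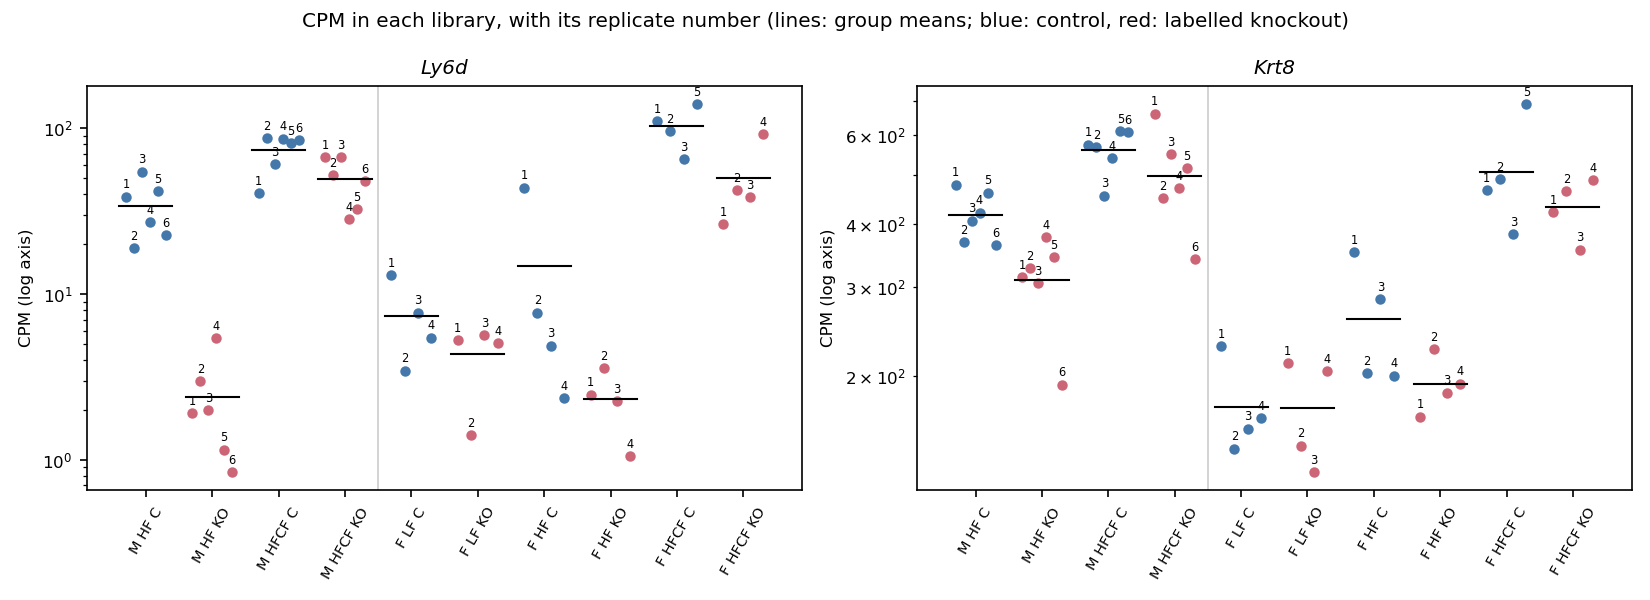
CPM of Ly6d and Krt8 in each library by group, on log axes, with replicate numbers beside the points and lines at the group means. In HF males the 6 labelled-knockout libraries lie at 0.843 to 5.41 CPM of Ly6d, below the 6 controls at 18.8 to 54.7 CPM.

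Variation among mice of the same group was examined last, as deviations of log2(CPM + 0.5) from the group mean over the 48 libraries, in a family of 85 relations (45 pairs of the genes, and each gene with 4 marker sums). All 45 correlations between the genes were above 0, from 0.142 to 0.890 with a median Pearson's r of 0.553. With two-sided permutation p-values adjusted over the 85 relations, 37 of 45 pairs passed 0.05. In males alone 23 of 45 passed and in females alone 31 of 45. Without the 2 libraries that stood apart, a setting chosen after seeing the data, 33 passed.

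Krt8 and Krt18 formed the closest pair, with r = 0.890 and Spearman's rho = 0.859 (adjusted permutation p = 6.5e-05, from the smallest p that 100000 permutations give). Leaving out the 2 libraries farthest in Krt8, r was 0.864. Within the 4 male groups of 6, r was 0.969, 0.943, 0.787 and 0.982. All 10 pairs among the 5 genes Krt7, Krt19, Epcam, Sox9 and Tspan8 passed, with r from 0.670 to 0.807. The range was 0.641 to 0.846 in males, 0.566 to 0.825 in females, and 0.467 to 0.742 without the 2 libraries that stood apart. This set was not planned in advance, so its pass count is no support for a group. It leaves out the duct marker Prom1, which gave r from 0.553 (with Krt7) to 0.729 (with Epcam) against these 5 genes. Ly6d and Spink1 gave r = 0.530 (adjusted permutation p = 0.0018).

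**Figure D5:**
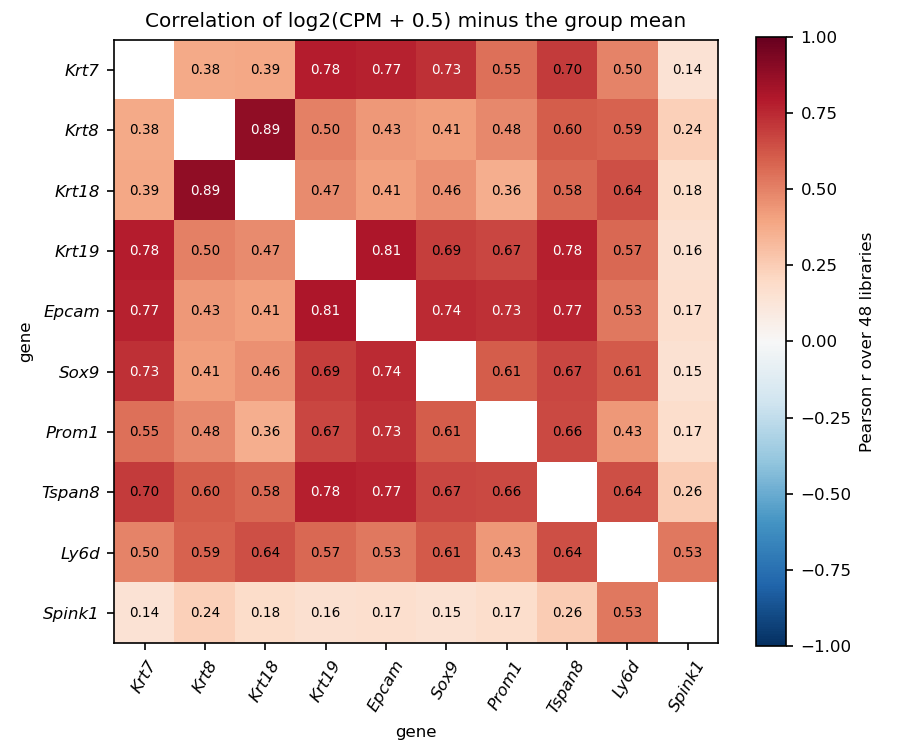
Pearson's r between each pair of the 10 genes over 48 libraries, computed on deviations of log2(CPM + 0.5) from the group mean. The strongest cell is Krt8 with Krt18 (0.890). The pairs among Krt7, Krt19, Epcam, Sox9 and Tspan8, a set not planned in advance, lie at 0.670 to 0.807.

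The genes also moved with markers of other cells from mouse to mouse. The summed stellate and fibroblast markers correlated with the 10 genes at r from 0.368 to 0.749, and 9 of the 10 relations passed, Spink1 being the one that did not. The summed hepatocyte markers gave r from -0.510 to -0.027. The sum of the other cholangiocyte markers gave -0.566 to -0.103, a sum of which Pigr alone made up 49.6% to 92.4% in a library. The part of these markers in the correlations between the genes was not tested.

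Ranked by the same measure over the 12365 genes that averaged 1 CPM or more, the 5 genes most like Krt19 were Cavin1 (r = 0.852), Ehd2 (0.846), Cryab (0.830), Dkk3 (0.826) and Mfge8 (0.825), and no keratin or other gene of the 10 was among them. Those named for Krt8 were Krt18 (0.890), the tubulin Tubb2a (0.853), and the annexins Anxa5 (0.803) and Anxa2 (0.770). Those most like Ly6d were the tetraspanin Cd9 (0.832), Ccdc120 (0.824), AI506816 (0.809), S100a11 (0.792) and the collagen Col1a1 (0.789). These ranks describe the 48 libraries and carry no p.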

How the data were processed

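Whole-liver RNA of 48 mice was sequenced without strand information. The deposited tables give raw read counts per gene, and per the submitters' processing notes STAR 2.6.1, HTSeq 0.6.1, DESeq2 2 and the builds GRCm38 and mm10 were involved, with no role or order stated. The deposited FPKM values are the authors' and were used only to compare levels between genes. The deposited normalised read counts, a signal scaled by the authors within each table, were not used for tests. The 11 tables were joined by gene identifier on their raw counts; 0 of 1341082 repeated counts differed, and 0 columns were without a sample.

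CPM were computed with edgeR 4.0.16 (R 4.3.3) after TMM scaling. Each comparison was fitted on its own groups with edgeR's quasi-likelihood test after filterByExpr, adjusted by Benjamini-Hochberg over all genes tested, with a threshold of 0.05, and was tested first on simulated data. Libraries of 15338239 to 22072884 reads set the counting precision. Replicates are separate mice per the labels and differed by more than sampling noise (lowest chi-square per degree of freedom 5.81 over 96 pairs). Alternatives were DESeq2 1.42.0 (its Wald test and its size factors), other filters, a joint fit of the 10 groups, a block for replicate number, and each library left out. Correlations used log2(CPM + 0.5), 100000 permutations (scipy 1.17.1) and an alternative pseudocount of 2 CPM. The genes named beyond the 10 are, per list, up to 4 with the smallest adjusted p, the further keratins that passed the filter, and the 5 genes with known symbols most like Krt19, Krt8 and Ly6d. For Krt8, 1 of these is not reported here. Pigr, Afp and Lgr4 in HF males, and Cftr, were named after their values were seen. The 10 genes, the lists and the tests were chosen with earlier results of these data known, and no list's count is independent support. Promoter windows are RefSeq's, on GRCm38.p6.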

Additional observations from a re-analysis of the deposited data

Results flagged for a closer look

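In groups of 4 to 6 libraries, a library was marked when its gap to the nearest other library was too large a share of the group's range (Dixon's test at the 95% level). Of 100 gene and group combinations 11 were marked, where chance marks about 1 in 20.

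Control replicate 1 of the HF females was marked for 5 genes. It held 4.22 CPM of Krt19, 14.9 CPM of Sox9, 7.74 CPM of Tspan8, 43.8 CPM of Ly6d and 0.578 CPM of Spink1, each the highest of its 4 libraries. Its summed stellate and fibroblast markers were 646 CPM, against 94.2 to 184 CPM in the other 3. The part of those cells in its values was not tested.

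Prom1 was marked in control replicate 1 of the HFCF males as low, at 1.10 CPM, and in control replicate 1 of the LF females as high, at 24.4 CPM. Tspan8 was marked as low, at 0.649 CPM, in labelled-knockout replicate 6 of the HF males. Ly6d was marked as low, at 1.40 CPM, in labelled-knockout replicate 2 of the LF females. Spink1 was marked in LF control female replicate 1, at 0.288 CPM, and in LF labelled-knockout female replicate 4, at 0.119 CPM. In those 2 groups the other 3 libraries had 0 reads of Spink1, and the marked libraries had 5 and 2 reads.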

How the results depend on the processing

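No alternative reversed a called direction. For the number of the 10 genes called, the settings that moved it were as follows. In HF males (labelled knockout against control, 2 called) DESeq2's Wald test called 4 and the fit of all 10 groups 1. There the fit without a filter added Krt18 (adjusted p = 0.046 by edgeR), as did a minimum of 10 counts in every library (adjusted p = 0.048 by edgeR). In HFCF males (1 called, Spink1) a minimum of 10 counts in every library, which removes Spink1, and the fit of all 10 groups each called 0. HF against LF in control females (0 called) gave 1 in the fit of all 10 groups. Males against females gave 1 in place of 2 in HF labelled knockouts with all 10 groups in one fit, and 1 in place of 2 in HFCF labelled knockouts with a minimum of 10 counts. The cause of these shifts was not tested, apart from the removal of Spink1. DESeq2's size factors moved none of these counts, and the fit without a filter moved only that of HF males. For the correlations, 23 of 45 pairs passed in males alone, against 37 with all libraries and 31 in females alone.

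With each library left out in turn, the genes called ranged from 1 to 4 in HF males, 0 to 2 in HFCF males and 0 to 0 in the 3 female comparisons and both HF against LF comparisons. They ranged from 1 to 7 between the sexes in HF controls, 1 to 2 in HF labelled knockouts, 0 to 1 in HFCF controls and 1 to 2 in HFCF labelled knockouts, and from 0 to 1 (HF) and 0 to 0 (HFCF) for the interactions. Spink1 in HFCF males lost its call without control replicate 3, 4 or 6 or labelled-knockout replicate 3 or 6. Krt18 in HF males gained one without control replicate 2 or 6 or labelled-knockout replicate 4. The median log2 ratio on HFCF against HF ranged from 1.17 to 1.53 (control males), 1.15 to 1.49 (labelled-knockout males), 1.80 to 2.89 (control females) and 1.85 to 2.12 (labelled-knockout females), and against LF from 1.62 to 1.96 and 1.24 to 1.67.

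Replicate numbers do not pair the mice: of 31 same-numbered pairs 9 had a correlation of deviations over 0.1 (from -0.267 to 0.487), and 0 of 7 group pairs had it throughout. With the number as a block, 3 genes were called in HF males, 0 in HFCF males, 2 (HF controls), 1 (HF labelled knockouts), 0 (HFCF controls) and 0 (HFCF labelled knockouts) between the sexes, and 0 in the other comparisons.

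Counts over all genes also moved. DESeq2's Wald test called 719 genes against 324 in HFCF males, 667 against 99 and 510 against 22 for HF against LF (controls and labelled knockouts), 8, 70 and 81 against 0, 0 and 8 in LF, HF and HFCF females, 46 and 17 against 0 and 0 for the interactions on HF and HFCF, and 794 against 396 and 1585 against 811 between the sexes on HFCF. The fit of all 10 groups called 1697 against 2591 in HF males, 195 against 324 in HFCF males, 2, 19 and 82 in LF, HF and HFCF females, 910 and 514 for HF against LF, 2 for the HF interaction and 1910 against 811 between HFCF labelled knockouts. Without a filter 185 and 124 genes were called for HF against LF, 26 in HFCF females, 1 in HF females and 1 for the HF interaction. With the block 165 were called in HFCF males, 0 in HFCF females, 9 for HF against LF in labelled knockouts, and 1677, 1053, 118 and 145 between the sexes in the order above. Depth limits Spink1, with at most 20 reads in any library outside the HFCF labelled-knockout males, and Krt7, with 9 to 155 reads.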
